A study of Caenorhabditis elegans with 2 samples.

Results

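The aquaporin genes aqp-1 to aqp-8 of Caenorhabditis elegans were followed in whole fourth-stage (L4) larvae kept at 25 °C. They were taken by name from the deposited table of all genes, and 8 of 8 names were found among 46233 genes. The data are 1 RNA library of the wild type strain N2 and 1 library of strain VC2324, which carries a flp-6 mutation. The labels do not name its allele. The flp-6 gene encodes FMRFamide-like neuropeptides. The labels name no other mutation, transgene or treatment in either strain. Levels are the FPKM values of the authors, a read density per length of transcript and per size of library, so that levels of different genes can be set side by side. With 1 library per genotype there is no spread between replicates, no test was made, and each difference is one between 2 libraries.

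Aquaporins are membrane channels that pass water, and in the aquaglyceroporin branch also glycerol and other small solutes. In this worm they sit mainly in epithelia that handle water, above all the excretory canal cell, which takes on kidney-like work, the intestine and the hypodermis. Glycerol is the chief osmolyte that worms build up in hypertonic surroundings, so that channels for water and for glycerol belong to the same physiology. By sequence aqp-1, aqp-2, aqp-3, aqp-7 and aqp-8 belong to the aquaglyceroporin branch and aqp-4, aqp-5 and aqp-6 to the classical water channels.

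The library labelled flp-6 mutant held less of the targeted transcript, with flp-6 at 4.40 FPKM against 57.95 FPKM in N2. All FPKM values together came to 989473 for the mutant and 1414572 for N2, and the sequencing depth of both is unknown. Each difference below is the log2(FPKM + 1) of the mutant minus that of N2, so that changes of low genes are understated. A gene counts as measured where its mean over both libraries is 1 FPKM or more, and as higher or lower from 2-fold on. Of the 8 aquaporins 6 were measured, whereas aqp-3 and aqp-5 stayed under the minimum in both libraries.

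Across the family, aqp-8 was lower in the mutant library and the other measured members lay close to their N2 level. Of 6 measured members 1 was at least 2-fold lower, where 11.3% of all 13436 measured genes were. None (0 of 6) was 2-fold higher, where 10.5% of all measured genes were. A count of 1 among 6 is thus near what the whole table shows. The median log2 difference of the 6 members was -0.16, beside -0.10 over all measured genes. Summed over the 8 members, the level was 383.9 FPKM in the mutant library and 436.8 FPKM in N2.

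**Figure D1:**
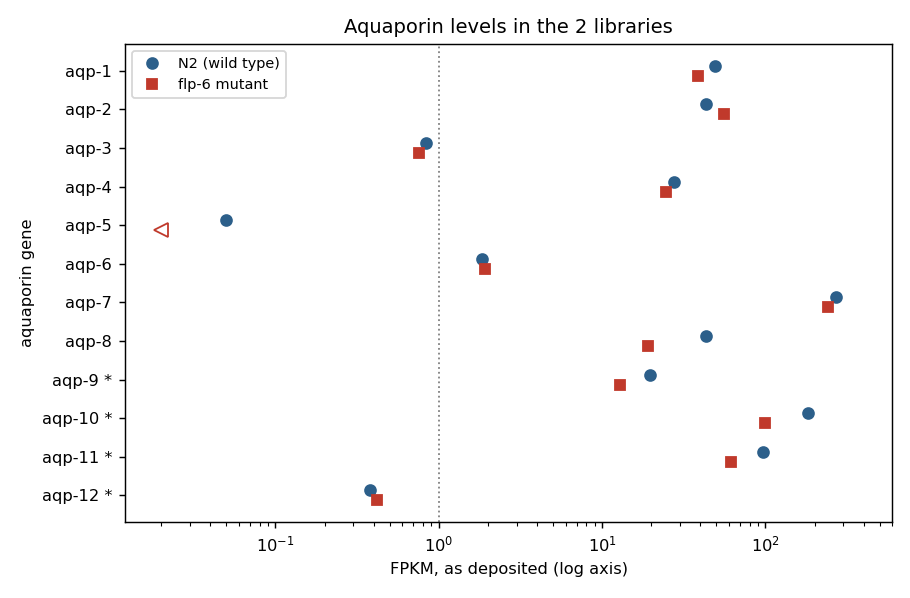
Level of each aquaporin gene in FPKM on a log axis, with N2 as blue circles and the flp-6 mutant library as red squares, 1 library each. Genes with an asterisk are aquaporins outside aqp-1 to aqp-8, the dotted line marks 1 FPKM, and the open triangle marks the aqp-5 value listed at 0.0001. The pair of points for aqp-8, at 43.5 and 19.1 FPKM, is the widest apart of the 6 measured members.

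The levels in N2 spanned 0.0500 to 270.2 FPKM. In N2 the order from the top was aqp-7, aqp-1, aqp-8, aqp-2, aqp-4, aqp-6, aqp-3 and aqp-5. In the mutant library it was aqp-7, aqp-2, aqp-1, aqp-4, aqp-8, aqp-6, aqp-3 and aqp-5. The aqp-8 gene thus went from the third to the fifth place, aqp-2 from the fourth to the second, and the 3 lowest genes kept their places. With no replicate, whether neighbours in either order differ beyond their spread cannot be said. By itself aqp-7 made up 61.9% of the summed level in N2 and 63.3% in the mutant library.

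The excretory canal aquaporins come first, as they hold the widest difference. The aqp-8 gene (WBGene00000176), an aquaglyceroporin gene expressed in the excretory canal cell, lies on the reverse strand of chromosome X from 4702167 to 4704977 in WBcel235. Its level was 19.1 FPKM in the mutant library and 43.5 FPKM in N2. The mutant value was 43.9% of the N2 value, and the log2 difference was -1.15. Of all measured genes 7.66% had a difference as low or lower, and among 3783 genes with a mean within 2-fold of that of aqp-8 the share was 5.79%. In the authors' deposited table the p-value of aqp-8 was 0.115 and its q-value 0.951, where the lowest q-value of any gene was 0.112. That test sets library against library and says nothing of variation between cultures.

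The aqp-2 gene (WBGene00000170), whose channel is found in the excretory cell and the hypodermis, lies on the reverse strand of chromosome II from 9259048 to 9261981. Its level was 56.1 FPKM in the mutant library and 43.2 FPKM in N2, a log2 difference of 0.37 and the highest of the 6 measured members. The 2 genes were thus nearly level with each other in N2 and apart in the mutant library. As aqp-2 and aqp-8 hold the highest and the lowest difference of the 6, their ratio differs the most by that choice. The level of aqp-8 was 1.01 times that of aqp-2 in N2 and 0.340 times in the mutant library. Such a ratio within a library does not depend on a scaling factor common to all its genes. It is not free of the difference with transcript length given below. Between the libraries it differed 2.95-fold for aqp-8 over aqp-2, 2.02-fold over aqp-4, 2.05-fold over aqp-7 and 1.78-fold over aqp-1.

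The aqp-3 gene (WBGene00000171), another channel of the excretory cell, lies on chromosome IV from 10961229 to 10966459 on the reverse strand. Its values were 0.758 FPKM in the mutant and 0.833 FPKM in N2. It was low in both libraries, so that no direction is read from it. The excretory canal cell is a single cell in a whole larva, and in bulk RNA fewer cells of a type and less RNA per cell cannot be told apart.

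The intestinal aquaporins differed little. The aqp-1 gene (WBGene00000169), an aquaglyceroporin gene whose transcript is known to be lowered by a glucose-rich diet through insulin signalling, lies on the reverse strand of chromosome II from 7235828 to 7238349. It had 38.7 FPKM in the mutant library and 49.4 FPKM in N2, a log2 difference of -0.35. The aqp-4 gene (WBGene00000172), a water channel gene of the intestine, lies on chromosome V (forward strand) from 9737556 to 9739740. It had 24.6 FPKM against 27.7 FPKM in N2, a log2 difference of -0.17. Both were slightly lower in the mutant library as deposited, and neither kept that sign under every scaling given below.

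The remaining members range from the most to the least abundant of the family. The aqp-7 gene (WBGene00000175), an aquaglyceroporin gene, lies on the forward strand of chromosome X from 3025063 to 3026974. It had 242.8 FPKM in the mutant library and 270.2 FPKM in N2, a log2 difference of -0.15, and ranked 605 and 753 in level among all genes of the table. A gene this abundant and this close between the libraries sets the family sum. The aqp-6 gene (WBGene00000174), a water channel gene whose promoter is active in the IL1 neurons of the head, lies on chromosome V (forward strand) from 10648446 to 10651997. It had 1.93 FPKM against 1.85 FPKM in N2, a log2 difference of 0.04. The aqp-5 gene (WBGene00000173), on chromosome V (forward strand) from 10491743 to 10493256, had 0.0500 FPKM in N2 and is listed at 0.0001 FPKM, which stands for 0, in the mutant. It was hardly seen in either library, and no fold is given.

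**Figure D2:**
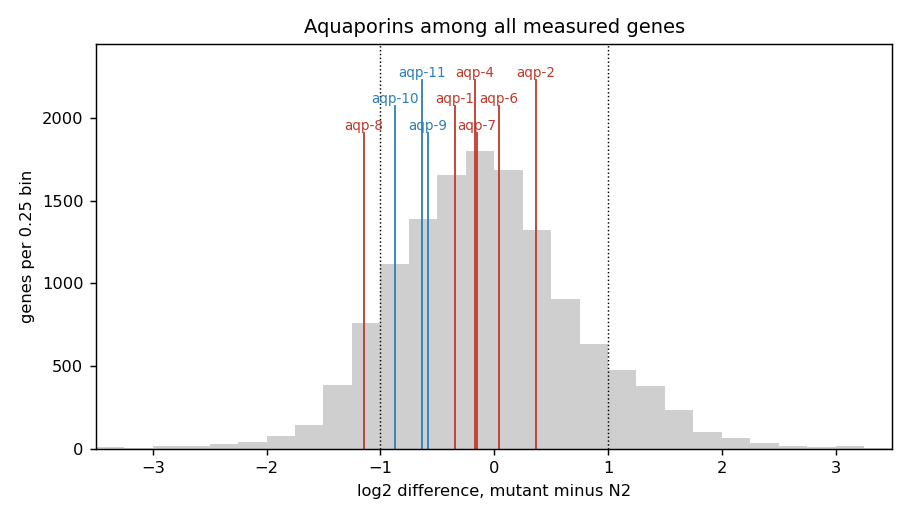
Number of genes per 0.25 bin of the log2 difference (mutant minus N2) over the 13436 measured genes, with a vertical line for each measured aquaporin, in red for aqp-1 to aqp-8 and in blue for aqp-9 to aqp-11. Dotted lines mark 2-fold, and values beyond 3.5 in either direction are not drawn. The aqp-8 line at -1.15 lies beyond the lower 2-fold line, and the other 5 members lie between -0.35 and 0.37.

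The aquaporins outside aqp-1 to aqp-8 were within 2-fold or too low to judge. The genes aqp-9, aqp-10 and aqp-11 belong to the unorthodox branch of the family. The aqp-10 gene had 99.1 FPKM in the mutant library and 182.5 FPKM in N2, a log2 difference of -0.88. The aqp-11 gene had 61.9 against 96.7 FPKM and a difference of -0.64. For aqp-9 the values were 12.8 against 19.7 FPKM and a difference of -0.58, all within 2-fold. The aqp-12 gene, at 0.421 and 0.382 FPKM, was not measured. Over the whole family of 12 genes, 9 were measured and 7 of these were lower in the mutant library by any amount, where 55.7% of all measured genes were. In the authors' deposited table the p-values of aqp-9, aqp-10 and aqp-11 were 0.866, 0.195 and 0.348. None of the 12 genes was among the 715 genes of the authors' deposited table of selected genes. Their enrichment terms were drawn from those selected genes, so that no aquaporin could stand under a term.

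The difference between the libraries went with transcript length in the range of the aquaporins, and this bears on how far aqp-8 stands from other genes. The median log2 difference was -0.46 for 1301 genes with a longest transcript of 800 to 1000 nt, -0.28 for 2025 genes of 1000 to 1300 nt and -0.15 for 2584 genes of 1300 to 1800 nt. In this range shorter genes sat lower, but the trend did not reach the shortest genes, whose bin around 149 nt had a median of -0.040 while that around 614 nt had -0.60. Taking from each gene the median of genes of like length, in 40 length bins over 12999 genes above 0.0001 in both libraries, gave a length-centred difference. On that scale aqp-8 stood at -1.097, and 2.25% of genes stood as low or lower. It was the lone member past 2-fold, where 3.15% of all genes were lower by that rule, and 0 members were past 2-fold on the higher side, where 10.9% were. The other 5 measured members were then all above 0, with aqp-2 at 0.51, aqp-6 at 0.33, aqp-4 at 0.12, aqp-1 at 0.09 and aqp-7 at 0.03. Among the unorthodox genes aqp-10 stood at -0.43, aqp-11 at -0.20 and aqp-9 at -0.13.

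For aqp-8 this value depended on which transcript gives the length. The annotation holds 5 transcripts of the gene, of which the longest has 1714 nt in 6 exons. The locus field of the deposited table runs from 4702963 to 4704968 and leaves out the far 3′ part of the gene, and the longest transcript inside it has 1135 nt. With that length the centred difference of aqp-8 was -0.82, within 2-fold. The difference stayed below 0 with both lengths, and which transcript the larvae made cannot be read from a value per gene.

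**Figure D3:**
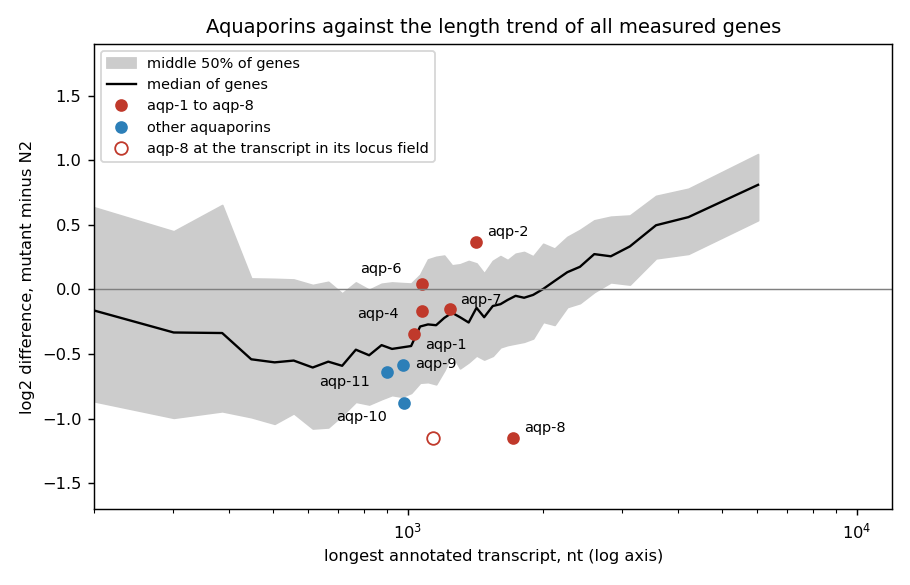
Log2 difference (mutant minus N2) against the longest annotated transcript on a log axis, with the median (black line) and the middle 50% (grey band) of measured genes in 40 length bins. Red points are measured members, blue points aqp-9 to aqp-11, and the open circle is aqp-8 placed at the 1135 nt transcript of its locus field. Both places of aqp-8 and the point of aqp-10 lie under the band, and aqp-2 lies above it.

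The scale of the libraries changed the size of the aqp-8 difference but not its direction in any setting run. With both libraries brought to the same upper quartile aqp-8 stood at -0.93, at -0.97 when genes averaging 5 FPKM or more were given a median difference of 0, and at -0.65 with both brought to the same FPKM sum. These settings moved the median of all measured genes by 0.19, 0.18 and 0.45. They put aqp-8 within 2-fold. The aqp-2 gene was above 0 in all of them and reached 0.88 with the same sum. The aqp-1 gene turned to 0.16 with the same sum, and aqp-4 and aqp-7 turned above 0 under each of these 3 settings.

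**Figure D4:**
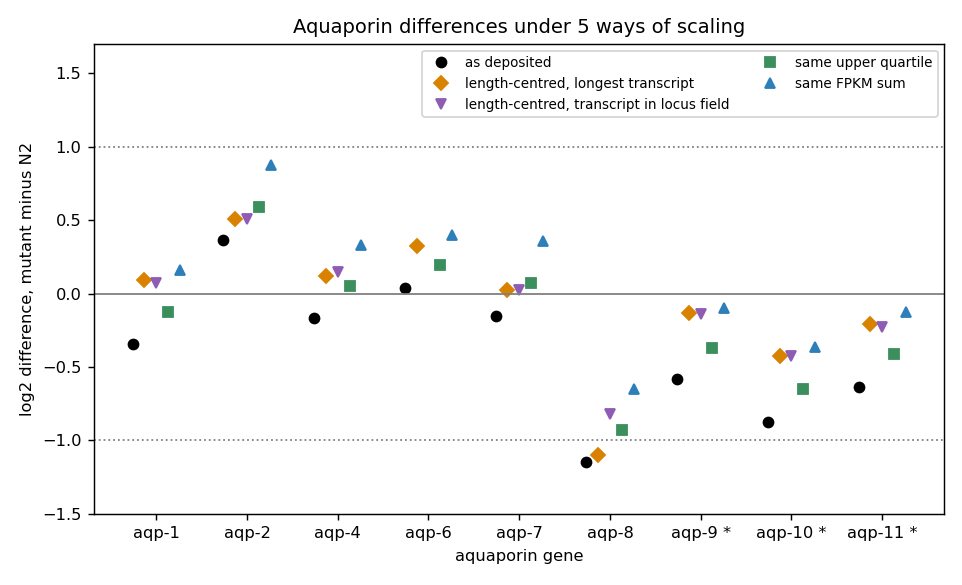
Log2 difference (mutant minus N2) of the 9 measured aquaporins as deposited and under 4 other scalings, each symbol being a scaling and each column a gene (asterisks mark aquaporins outside aqp-1 to aqp-8). Dotted lines mark 2-fold. The symbols of aqp-8 range from -1.15 to -0.65 and those of aqp-2 from 0.37 to 0.88, so that they lie on opposite sides of 0.

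Genes that share the excretory canal with aqp-8 went both ways. Of 34 genes in the list 28 were found and 23 were measured, of which 2 were higher and 0 lower by the 2-fold rule, against 10.5% and 11.3% of all measured genes. The higher count is near that background, and the median log2 difference was -0.03. Summed over the list the level was 1698 FPKM in the mutant library and 2142 FPKM in N2. The higher genes were sma-1, a heavy spectrin of the apical membrane, at 11.2 against 2.87 FPKM, and itr-1, the inositol trisphosphate receptor, at 15.1 against 5.41 FPKM. Both have very long transcripts, of 13098 and 8906 nt, and after length centring neither was past 2-fold. The lowest were ifa-4, an intermediate filament gene, at 46.3 against 86.5 FPKM, and vha-5, a subunit of the proton pump of the canal, at 72.4 against 124.8 FPKM. After length centring vha-5 stood at -1.04, the lone gene of 23 past 2-fold, where 3.15% of all genes were lower by that rule. The transcription factors ceh-6, at 0.599 against 0.521 FPKM, and pros-1, at 0.939 against 0.651 FPKM, which are needed for the form of the canal, were under the minimum. So were lin-48, at 0.604 against 0.568 FPKM, lpr-1, at 0.275 against 0.588 FPKM, and pgp-12, at 0.324 against 0.395 FPKM. No direction is read from these low values. Whether the cell was less represented in the mutant library was not tested.

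As deposited, genes of glycerol, osmolytes and osmotic stress passed the 2-fold rule about as often as genes in general. Of 20 genes 18 were measured, of which 2 were lower and 1 was higher by that rule, against 11.3% and 10.5% of all measured genes. By any amount 13 had a value below that of N2, where 55.7% of all measured genes did. Their median log2 difference was -0.46, and -0.37 after length centring. After that centring 3 of 18 were lower by the 2-fold rule and 0 higher, where 3.15% and 10.9% of all genes were. These 3 were hmit-1.1 at -1.66, hmit-1.2 at -1.28 and tps-2 at -1.09. As deposited, the lowest were the proton-coupled myo-inositol transporter genes hmit-1.1, at 1.299 against 5.95 FPKM, and hmit-1.2, at 0.608 against 2.55 FPKM. The predicted glycerol kinase gene R11F4.1, which would take glycerol into lipid and sugar metabolism, had 26.2 against 52.5 FPKM. The glycerol-3-phosphate dehydrogenase genes that lead to glycerol synthesis had 1.35 against 2.86 FPKM for gpdh-1 and 120.2 against 191.2 FPKM for gpdh-2. Their log2 differences were -0.71 and -0.66. Without the added 1 FPKM the plain ratio of gpdh-1, a low gene, is past 2-fold, and that of R11F4.1 is barely past it. The higher gene was wnk-1, a kinase of cell volume control, at 37.3 against 16.0 FPKM, whose transcript of 6519 nt is long and whose length-centred difference was 0.36. The median of this list turned to 0.03 with both libraries brought to the same sum.

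Markers of the tissues in which aquaporins are known were compared as a check on the makeup of the libraries. All 12 intestine markers were measured, and their median was 0.09. By the 2-fold rule 0 were higher and 2 lower, against 10.5% and 11.3% of all measured genes. The lower markers were cpr-1, a cysteine protease gene, at 88.1 against 253.2 FPKM, and the aspartyl protease gene asp-1, listed at 0.0001 FPKM in the mutant library against 1961 FPKM in N2. The transcription factor elt-2, which defines the intestine, had 7.98 against 6.79 FPKM. The markers elt-7, at 8.79 against 12.9 FPKM, and ges-1, at 12.3 against 18.7 FPKM, went the other way. By any amount 6 of the 12 markers were higher and 6 lower, where 55.7% of all measured genes were lower. The marker sum was 1592 against 3396 FPKM, and asp-1, the lone intestine marker listed at 0, accounts for more than that gap. Of 12 hypodermis markers 8 were measured with none past 2-fold, a median of 0.06 and a sum of 1183 against 1457 FPKM. All 13 general neuron markers were within 2-fold as deposited, with a median of -0.29 and a sum of 215.9 against 260.7 FPKM. After length centring 1 of these 13, unc-31, was past 2-fold at -1.31, where 3.15% of all genes were lower by that rule. The IL1 marker flp-3 had 4.96 against 9.56 FPKM, beside the nearly equal aqp-6.

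Markers of body wall muscle, sperm and yolk did differ between the libraries. Whether the larvae differed in stage was not tested. The 12 body wall muscle markers had a median of 0.64, with 5 past 2-fold on the higher side and 0 on the lower, against 10.5% and 11.3% of all measured genes. These 5 have long transcripts, of 3424 to 24703 nt. By any amount 2 of the 12 were lower, where 55.7% of all measured genes were, with pat-10 at 1669 against 2856 FPKM. Summed over the list the level was 5390 FPKM in the mutant library and 5643 FPKM in N2. After length centring the median of the 12 markers was 0.59. Of the 12 markers 1 was then past 2-fold on the higher side, where 10.9% of all genes were. Of 28 measured major sperm protein genes 17 were past 2-fold on the higher side, where 10.5% of all measured genes were. After length centring 24 of 27 were, where 10.9% of all genes were. Of 6 yolk genes 3 were past 2-fold on the lower side, where 11.3% of all measured genes were. After length centring 6 of 6 were, where 3.15% of all genes were. The part of these differences in the aquaporin values was not tested.

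**Figure D5:**
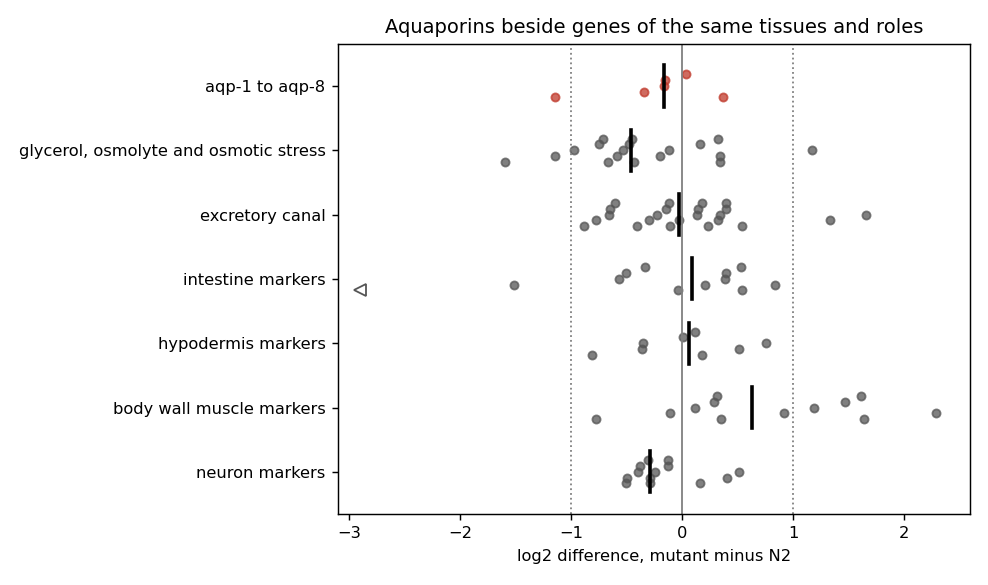
Log2 difference (mutant minus N2) of each measured gene in the aquaporin family aqp-1 to aqp-8 (red) and in 6 lists of genes of related tissue or role (grey), with a black bar at each median. Dotted lines mark 2-fold, and the open triangle is asp-1, listed at 0.0001 in the mutant library and beyond the axis. The medians run from -0.46 for the glycerol and osmotic list to 0.64 for body wall muscle, with the aquaporins at -0.16.

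The protein-coding genes nearest to aqp-8 in level in both libraries were Y37H2A.12, at 18.7 against 43.4 FPKM, F55G1.5, at 19.5 against 44.3 FPKM, and W02D9.4, at 19.7 against 43.4 FPKM. Likeness was the distance between the log2(FPKM + 1) values of the 2 libraries, and it was 0.03, 0.04 and 0.05. In all 47 genes lay within 0.2. With 2 libraries this likeness says only that the levels were close.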

How the data were processed

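Whole L4 larvae of N2 and of the flp-6 mutant gave 1 library each. TruSeq version 2 libraries were made from total RNA, per the labels' protocols. The submitters' processing notes name TopHat, Cufflinks and WBcel235. Their versions and settings, and whether strand was used, are not given in the sources. The authors deposited FPKM, with 0.0001 in place of 0. Their deposited ratio and log2 ratio set mutant over N2, per the file headers. The deposited p-value and q-value compare 1 library with the other.

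Coordinates and transcript lengths came from the Ensembl annotation of WBcel235, release 115, which held 99.2% of the identifiers. The deposited locus field often covers neighbouring genes. FPKM times length fell within 0.1 of a whole step at best for 23.4% (mutant) and 24.2% (N2) of low values, against 20% by chance, so that no reads were recovered, depth is unknown and no counting interval is given.

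Differences were computed with a pseudocount of 1 FPKM over genes averaging 1 FPKM or more. A real change that goes with length is lost from the length-centred difference. Alternatives were a pseudocount of 0.1 or 5, a minimum mean of 5 FPKM or none, rescalings, length centring, leaving out genes at 0.0001 and a 4-fold threshold. Length from the transcript inside the locus field, with a tolerance of 60 bases, was added after the values had been seen, as was the comparison of aqp-8 with each abundant member. The rule for named genes took the 8 members, the other aquaporins, flp-6, up to 4 genes of each list with the widest differences and the 3 genes nearest to aqp-8 in level. Outside it gpdh-1, gpdh-2, ceh-6, pros-1, lin-48, lpr-1, pgp-12, elt-2, elt-7, tps-2 and pat-10 were named after their values were seen. The members and lists were chosen with earlier results of these data known. The length centring was tested on simulated data whose trend rose steadily with length, as the trend here does not among the shortest genes. Other steps, such as the list counts and rescalings, were not simulated. Python 3.11.15, numpy 2.4.6, pandas 2.3.3 and matplotlib 3.10.9 were used.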

Additional observations from a re-analysis of the deposited data

How the results depend on the processing

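The median log2 difference of the measured aquaporins was -0.16 as deposited, -0.16 with a pseudocount of 0.1, -0.15 with a pseudocount of 5, -0.11 with no filter and -0.17 with a mean of at least 5 FPKM. It turned to 0.35 with the same sum, 0.060 with the same upper quartile, 0.021 with the median difference set to 0, 0.11 after length centring and 0.071 after length centring by the transcript inside the locus field. That transcript was not found for aqp-6. The count of aquaporins at least 2-fold lower was 1 as deposited and 0 with the same sum, the same upper quartile, the median difference set to 0, the 4-fold threshold and length centring by the transcript inside the locus field. The aqp-8 difference was below 0 in 10 of 10 alternatives that give a difference, from -1.18 to -0.65, and past 2-fold in 6 of them. The filters on genes leave the aqp-8 value as it is, and a pseudocount cannot change its sign. These alternatives therefore do not bear on its direction, and most of the 6 are of this kind. Each rescaling, and length centring by the transcript inside the locus field, put aqp-8 within 2-fold. No aquaporin was 2-fold higher in any alternative run. The cause of these shifts was not tested. Depth is unknown, so that the precision of low genes such as aqp-3, aqp-5 and aqp-6 cannot be given. No paired analysis was possible because there is 1 library per genotype.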

Other observations

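Some aquaporin genes share transcribed bases with a neighbour, and whether reads were counted by strand is not stated. The annotated exons of aqp-1 share 93 bases with ctsa-3.1 on the opposite strand, at 100.1 FPKM in the mutant and 75.7 FPKM in N2. Those of aqp-4 share 39 bases with marc-1 on the same strand, at 3.30 against 1.38 FPKM, and those of aqp-9 share 120 bases with K07A1.15 on the opposite strand, at 19.6 against 18.9 FPKM. For aqp-8 no annotated gene overlaps, and the nearest lies 2037 bases away, so that its value has no such neighbour. The aqp-12 exons share 72 bases with pqn-87 on the opposite strand, at 66.1 against 33.1 FPKM.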
